A study of Mus musculus with 6 samples.

Results

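The enzymes of mitochondrial fatty acid oxidation were compared between dedifferentiated fat (DFAT) cells and mature adipocytes (AC) of the mouse. The list named 10 genes, and a gene was measured when a probe set of the array was annotated to its symbol alone. This held for 9 of the 10 genes, with 17 of the 45037 probe sets tested, while Cpt1b had no probe set of its own. DFAT cells, 3 arrays, were the proliferating cells that arise when floating adipocytes are kept in ceiling culture, here grown to semiconfluence, and the methods describe them as a preadipocyte line made from GFP transgenic mice. AC, 3 arrays, were primary adipocytes taken from fat tissue, for which neither a transgene nor a strain is stated, and age and sex are given for neither group. Whether the arrays within a group stand for different animals or cultures is not stated, so p-values here refer to the spread among these arrays alone, which may be technical. If the DFAT arrays are all of 1 line, they do not speak for other lines.

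Long-chain fatty acids enter mitochondria as carnitine esters. Carnitine palmitoyltransferase 1 (Cpt1a in most tissues, Cpt1b in muscle and in some adipocytes) makes the ester at the outer membrane and is inhibited by malonyl-CoA, the carnitine-acylcarnitine carrier Slc25a20 takes it across the inner membrane, and Cpt2 restores the acyl-CoA inside. Acyl-CoA dehydrogenases of different chain-length preference (Acadvl, Acadl, Acadm) then open the spiral, the trifunctional protein of the subunits Hadha and Hadhb carries out its later steps for long chains, and Decr1 reduces the double bonds of unsaturated fatty acids so that they can pass. White adipocytes mostly store and release fatty acids, yet they hold the whole pathway, which PPAR nuclear receptors and the coactivators PGC-1α and PGC-1β (Ppargc1a, Ppargc1b) are known to control.

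Of the 9 enzymes measured, 7 were lower in DFAT cells, 1 was higher and 1 did not pass the test at an adjusted p under 0.05 (limma, Benjamini-Hochberg over all probe sets). Over all 18193 genes, each taken at its brightest probe set on average, 46.4% passed, 23.8% as lower and 22.6% as higher. The enzymes that fell were Cpt2, Acadl, Acadm, Acadvl, Hadha, Hadhb and Decr1, by 2.64-fold to 7.71-fold, and the one that rose was Cpt1a, by 2.21-fold. The median log2 difference of the 9 enzymes, DFAT cells minus AC, was -1.83, against -0.10 for all genes. Values are log2 expression values after RMA, so that a difference of 1 is a factor of 2, and they cannot be compared between genes because each probe set binds with its own strength. The array of a bulk sample cannot tell fewer cells of a type from less RNA per cell. With each array centred on 11 reference genes the median of all probe sets was -0.665 and with 18 hybridization controls it was 0.40, against -0.06 as deposited, and under both the 7 enzymes remained lower and Cpt1a higher past the test. The reference genes themselves differed between the groups as deposited, with 7 of the 11 higher and 1 lower in DFAT cells and a median difference of 0.51.

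**Figure D1:**
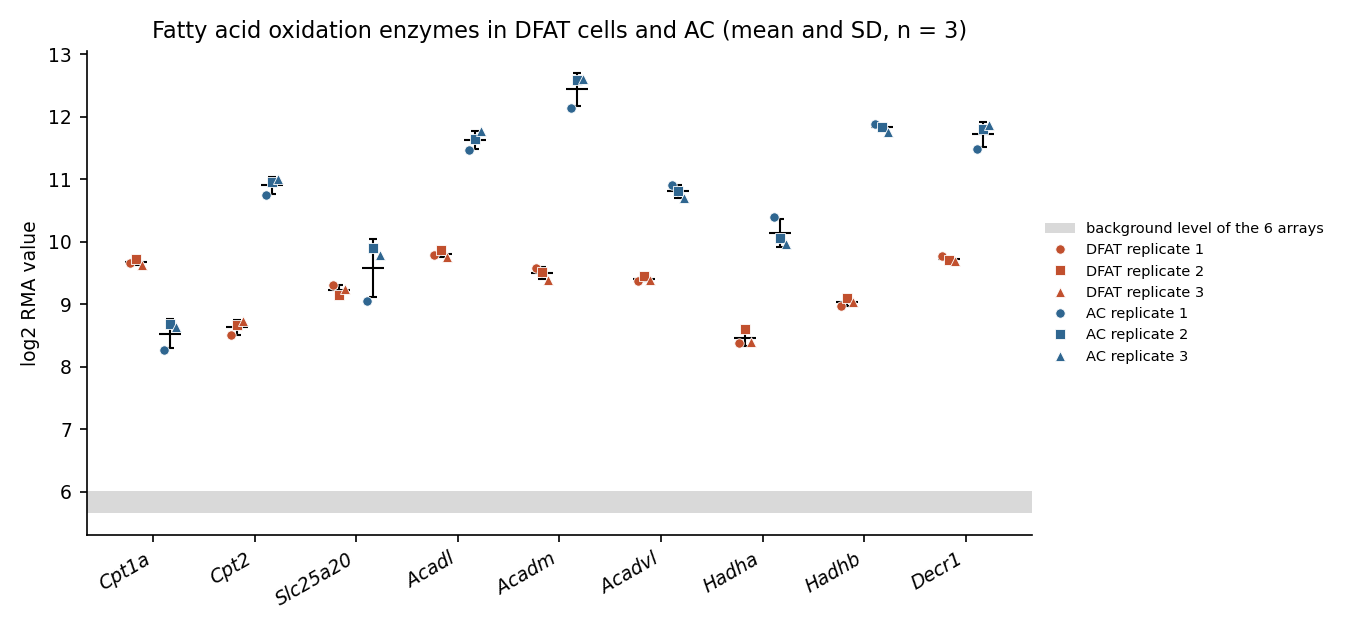
Log2 RMA values (y axis) of the 9 measured enzymes (x axis), 1 probe set per gene. Points are arrays, red for DFAT cells and blue for AC, black marks are mean and SD (n = 3 each), and background levels of the 6 arrays, 5.66 to 6.001, are shaded grey. DFAT arrays lie below all AC arrays for 7 enzymes and above them for Cpt1a, and for Slc25a20 the groups overlap.

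Promoter sequences of RefSeq (GRCm38.p6) were found for 8 of the 10 genes, and the 250 bases before the start site were searched on both strands. The stretch between Hadha and Hadhb is shown because the genes of these partner subunits lie head to head, 272 bases apart, and both fell. The promoter of Acadm is shown as that of the enzyme with the largest difference, and 30 bases of that of Cpt1a, from 99 to 70 bases before its start, as that of the enzyme that rose. Capitals mark AGGTCA, the half-site that nuclear receptors bind, and GGGCGG, the GC box, each in either orientation.
Hadha-Hadhb, chr5:30154981-30155252, plus strand, Hadhb to the right: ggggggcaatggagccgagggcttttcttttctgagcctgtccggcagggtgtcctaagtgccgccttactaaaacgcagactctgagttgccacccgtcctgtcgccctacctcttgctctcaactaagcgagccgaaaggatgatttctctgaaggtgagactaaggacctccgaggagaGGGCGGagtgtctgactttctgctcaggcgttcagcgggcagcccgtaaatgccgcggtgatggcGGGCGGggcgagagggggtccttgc
Acadm, chr3:153944644-153944893, minus strand: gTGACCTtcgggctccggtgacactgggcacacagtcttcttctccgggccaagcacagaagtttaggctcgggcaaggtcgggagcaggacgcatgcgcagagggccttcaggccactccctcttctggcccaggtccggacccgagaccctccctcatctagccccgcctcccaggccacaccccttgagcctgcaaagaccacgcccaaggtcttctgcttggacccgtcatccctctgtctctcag
Cpt1a, chr19:3323202-3323231, plus strand: cttacTGACCTcctccccgcagccCCGCCC
The half-site lay in 3 of the 8 windows, those of Cpt1a, Acadm and Acadvl, and in 14.0% of all 32851 promoter windows. The GC box lay in 6 of the 8, all but Acadm and Acadvl, against 32.7% of all windows, and the windows of Hadha and Hadhb overlap in the stretch printed above and share 1 of its boxes. The direct repeat of this half-site with 1 base between the copies (DR1), which PPARs prefer, was in 0 of the 8 windows and in 0.0335% of all, and the element TCAAGGTCA of the estrogen-related receptors was in 0 of the 8 and in 0.387% of all. Letters of the half-site are part of both longer motifs. Both were searched as exact letters and are so rare that their absence from 8 windows is uninformative. A match describes the letters only, and the enzyme that rose shares its half-site with enzymes that fell.

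At the first committed step, Cpt1a had log2 values of 9.66, 9.72 and 9.63 in DFAT cells, against 8.26, 8.69 and 8.63 in AC. All DFAT arrays lay above all AC arrays, as for 27.5% of all genes, and the difference was 1.15 (95% confidence interval 0.79 to 1.501, adjusted p = 0.000584 from limma). Both further probe sets of Cpt1a were also higher. The first averaged 7.96 ± 0.05 in DFAT cells and 6.91 ± 0.13 in AC (SD, n = 3 each), and the second 6.02 ± 0.17 in DFAT cells and 4.32 ± 0.54 in AC, where it was at background level (SD, n = 3 each). A probe set is called at background level in a group when none of its arrays exceeds the level under which 95% of 137 probe sets for sense organ, lens, retina and sperm genes lie. The Cpt1a probe sets ending in _x_at can also bind other transcripts. Across its 3 probe sets the difference of Cpt1a thus ran from 1.05 to 1.71.

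Inside the membrane the order was the other way round. Cpt2, the partner of Cpt1a in the matrix, had log2 values of 8.498, 8.66 and 8.72 in DFAT cells, against 10.75, 10.96 and 11.002 in AC. The groups lay far apart, with a difference of -2.27 (95% confidence interval -2.59 to -1.95, adjusted p = 7.55e-06 from limma), a 4.83-fold fall. Its second probe set passed the test too, at a difference of -1.06, with both groups at background level. The change of Cpt1a exceeded that of Cpt2 by 3.42 on the log2 scale, and the 3 DFAT arrays all had a higher Cpt1a to Cpt2 ratio than the 3 AC arrays. An exact two-sided permutation test of this gave p = 0.1, the smallest that 3 against 3 arrays allow, and 0.1 after adjustment over the 4 pairs of enzymes compared.

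For the carrier Slc25a20 the probe sets disagreed. The brighter one had log2 values of 9.30, 9.14 and 9.24 in DFAT cells, against 9.05, 9.90 and 9.79 in AC. The array of AC replicate 1 lay below all DFAT arrays and the others above them, and the difference of -0.35 did not pass the test (95% confidence interval -0.87 to 0.17, adjusted p = 0.268 from limma). Without AC replicate 1 it was -0.61 (adjusted p = 0.00337 from limma), and centred on the hybridization controls it was 0.11 (adjusted p = 0.811 from limma). The _s_at probe set of Slc25a20, which can also match other transcripts, had 7.91, 7.95 and 7.86 in DFAT cells, against 9.21, 9.14 and 9.35 in AC. Here the groups did not overlap, and the difference was -1.33 (adjusted p = 9.3e-05 from limma).

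The 3 acyl-CoA dehydrogenases that take long and medium chains all fell. Acadm, the medium-chain enzyme, had log2 values of 9.57, 9.52 and 9.39 in DFAT cells, against 12.14, 12.58 and 12.60 in AC. This was the largest difference among the 9 enzymes, at -2.95 (95% confidence interval -3.33 to -2.56, adjusted p = 4.58e-06 from limma), a 7.71-fold fall. Acadl, the long-chain enzyme, had 9.78, 9.86 and 9.76 in DFAT cells, against 11.47, 11.65 and 11.76 in AC, a difference of -1.83 (adjusted p = 2.07e-05 from limma). Its second probe set was at background level in both groups and did not pass the test. Acadvl, which acts on very long chains at the inner membrane, had 9.37, 9.45 and 9.39 in DFAT cells, against 10.91, 10.81 and 10.70 in AC. It had the smallest fall of the 7 enzymes called lower, -1.40 (adjusted p = 6.59e-05 from limma), or 2.64-fold. All 3 stayed above the background level on every DFAT array. Between the dehydrogenases, the change of Acadl exceeded that of Acadm by 1.12, and the change of Acadm differed from that of Acadvl by -1.55, with the groups apart in both and an exact p of 0.1 each, the smallest possible.

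Both subunits of the trifunctional protein fell. Hadha, the subunit with the hydratase and dehydrogenase activities, had log2 values of 8.38, 8.60 and 8.39 in DFAT cells, against 10.39, 10.06 and 9.97 in AC. Hadhb, the thiolase subunit, had 8.97, 9.09 and 9.03 in DFAT cells, against 11.89, 11.84 and 11.76 in AC. No DFAT array reached the AC range for either gene. The differences were -1.68 for Hadha (95% confidence interval -2.05 to -1.32, adjusted p = 8.4e-05 from limma) and -2.80 for Hadhb (95% confidence interval -3.08 to -2.51, adjusted p = 1.23e-06 from limma). The 2 genes whose start sites face each other across the stretch printed above thus differed by 1.11 in their change, with an exact p of 0.1, the smallest possible. This gap rests on the probe set taken for Hadhb. Its second probe set had 8.36, 8.09 and 8.17 in DFAT cells and 9.43, 10.14 and 9.999 in AC, a difference of -1.65 (adjusted p = 0.000355 from limma), close to that of Hadha. This second probe set ends in _x_at and can also bind other transcripts. The third, at background level in DFAT cells with 4.57, 4.46 and 3.79, had 6.39, 4.57 and 4.93 in AC, the highest from replicate 1, and did not pass the test (adjusted p = 0.114 from limma). With the mean over the probe sets of a gene, the third of Hadhb included, Hadha and Hadhb differed by 0.14 in their change.

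Decr1, the reductase for unsaturated fatty acids, had log2 values of 9.77, 9.71 and 9.70 in DFAT cells, against 11.49, 11.80 and 11.86 in AC. The second probe set of Decr1 fell further, with 6.25, 6.36 and 6.61 in DFAT cells, against 8.90, 9.67 and 9.32 in AC. For both the groups were far apart, with differences of -1.99 and -2.89 (adjusted p = 1.96e-05 and 2.1e-05 from limma).

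Of the 17 probe sets, 11 were lower, 3 were higher and 3 did not pass the test, where of all probe sets 38.4% passed, 18.1% as lower and 20.3% as higher, and each of the 7 genes called lower had none called higher. For 7 of the 9 enzymes all DFAT arrays lay below all AC arrays, as for 32.5% of all genes. Of the 9 enzymes, 3 fell at least 4-fold, Acadm, Hadhb and Cpt2, as did 6.65% of all genes. In the order of the falls, Acadm, Hadhb, Cpt2, Decr1, Acadl, Hadha and Acadvl, the confidence interval of each overlapped that of the next.

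**Figure D2:**
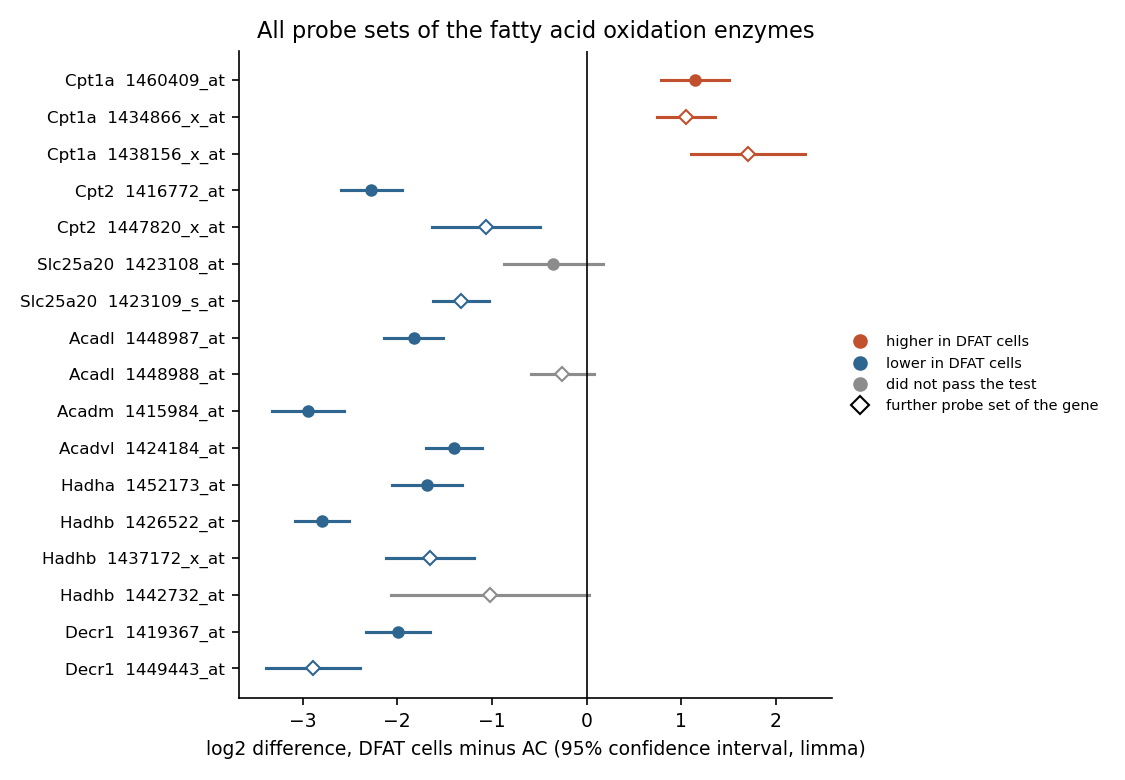
Log2 difference, DFAT cells minus AC (x axis), with 95% confidence intervals from limma, for the 17 probe sets of the 9 enzymes (y axis). Filled circles are the probe sets that stand for the gene, open diamonds the others, red is higher, blue lower and grey did not pass the test. The 3 probe sets of Cpt1a lie right of 0 and the other 14 lie left of it.

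Within groups the DFAT arrays lay closer together. The range over the 3 arrays was 0.07 to 0.23 in DFAT cells and 0.12 to 0.84 in AC. It was wider in AC for each of the 9 enzymes, for Hadhb only slightly (0.123 against 0.121). Over all probe sets too the DFAT arrays were the closer, correlating with each other at 0.995 to 0.996. The array of AC replicate 1 correlated with its fellow AC arrays at 0.971 and 0.969, while those correlated at 0.992 between themselves. Cpt1a, Cpt2, Slc25a20, Acadl, Acadm and Decr1 were lowest on that array, by 0.23 to 0.79 under the mean of the others, and Acadvl, Hadha and Hadhb were highest there, by 0.09 to 0.38. The same array had a mean of 9.62 for the 16 endothelial markers, where its fellows had 7.89 and 7.74. For the 13 epithelial markers it had 9.46, where they had 8.86 and 8.76. For the 16 macrophage markers it had 6.21, where they had 7.51 and 7.65, and for the 19 white adipocyte markers 12.50, where they had 12.68 and 12.63. Their part in the spread of the enzymes was not tested. Without AC replicate 1, 8 of the 9 enzymes were lower, Slc25a20 being the one added, and Cpt1a was higher by 1.01. Calls also rose over all probe sets, of which 46.6% then passed, against 38.4% with all arrays.

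**Figure D3:**
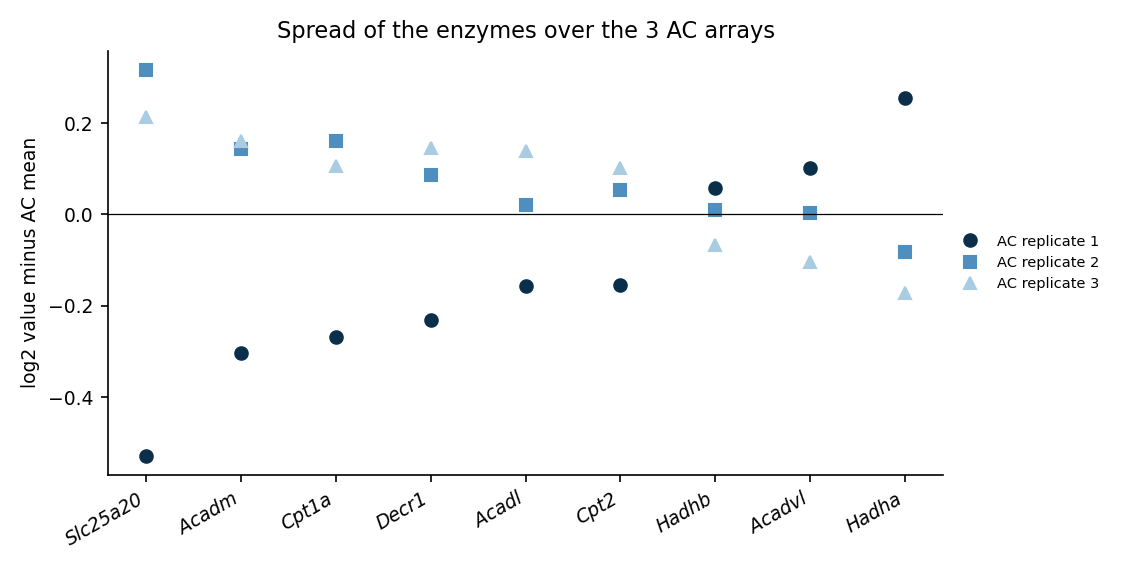
Log2 value minus the AC mean (y axis) for the 9 enzymes (x axis) on the 3 AC arrays, ordered by how far replicate 1 lay from the others. Replicate 1 is lowest for 6 enzymes, down to -0.53 for Slc25a20, and highest for Hadhb, Acadvl and Hadha.

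Markers of the cells moved with the groups. For comparison, 23.8% of all genes were lower and 22.6% higher in DFAT cells. All 19 measured white adipocyte markers fell in DFAT cells, with a mean level of 6.42 to 6.47 on the DFAT arrays and 12.50 to 12.68 on the AC arrays, and 10 of them were at background level in DFAT cells. All 13 proliferation genes rose, with 10.82 to 10.91 on the DFAT arrays and 4.98 to 5.38 on the AC arrays, and of 12 stromal markers 9 rose and 2 fell. AC also held signal of other cells. The 16 endothelial markers averaged 4.42 to 4.44 on the DFAT arrays, where 12 were at background level, and 7.74 to 9.62 on the AC arrays, and all 16 fell. The 16 macrophage markers averaged 4.32 to 4.42 in DFAT cells and 6.21 to 7.65 in AC, with 14 lower, and the 13 epithelial markers 4.72 to 4.87 in DFAT cells and 8.76 to 9.46 in AC, with 11 lower. Their part in the fall of the enzymes was not tested. Of the 14 skeletal muscle markers, whose tissue is rich in oxidation enzymes, 12 were at background level in both groups, and the 4 of the 14 that were called lower, against 23.8% of all genes, were among these 12. Acta1 was above background level on every array, with 9.13, 9.25 and 9.28 in DFAT cells and 9.21, 10.37 and 10.58 in AC. It did not pass the test. Of the 9 brown fat markers 5 were at background level in both groups and 5 were lower, with Cox8b, a subunit of cytochrome oxidase, at 4.43 ± 0.17 in DFAT cells and 10.64 ± 0.36 in AC (SD, n = 3 each). Ucp1, the uncoupling protein, was called lower with both groups at background level. It had 3.74, 3.43 and 3.49 in DFAT cells and 4.84, 5.14 and 4.62 in AC.

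A list of further acyl-CoA dehydrogenases, other enzymes of the spiral and its electron transfer genes fell as well. All 13 genes of this list were lower in DFAT cells, with a median difference of -1.49, against 23.8% lower among all genes. On the scale of the hybridization controls 9 of them were lower, and 3405 of all 45037 probe sets. Echs1, the short-chain hydratase, averaged 9.40 ± 0.05 in DFAT cells and 11.90 ± 0.05 in AC (SD, n = 3 each), a difference of -2.50, and Eci1, an isomerase for unsaturated chains, fell by 2.45. Acad11, a less studied dehydrogenase, fell by 4.37, the largest difference of the list, from an _s_at probe set. The electron transfer flavoprotein, which passes the electrons of the dehydrogenases on, fell in both subunits, where Etfa fell by 1.49 and Etfb fell by 1.09, and its oxidoreductase Etfdh fell by 2.12. The short-chain dehydrogenase Acads fell by 1.98.

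Carnitine handling and fatty acid activation were mixed, with 3 of 9 measured genes lower, 4 higher and 2 not called. The acyl-CoA synthetase Acsl1, also listed, was not measured, so the list does not show how it changed. Among all genes 23.8% were lower and 22.6% higher. On the scale of the reference genes, and without DFAT replicate 2 or 3, 2 of the 9 were higher. On the first of these scales 4881 of all 45037 probe sets were higher. The carnitine transporter Slc22a5 fell by 0.93, its relative Slc22a4 fell by 3.52 to background level, and Crat, the acetyltransferase for carnitine, fell by 2.30. Cpt1c, a relative of Cpt1a known mainly from neurons, had log2 values of 8.76, 8.62 and 8.80 in DFAT cells, against 5.15, 5.48 and 5.50 in AC, where it was at background level. The groups were far apart, and the difference was 3.35 (adjusted p = 1.25e-06 from limma), so that both CPT1 genes measured rose. Among acyl-CoA synthetases, Acsl5 rose by 0.995 and Acsl4 by 1.29, the second called narrowly (adjusted p = 0.0437 from limma) with 9.53 to 9.70 in DFAT cells and 7.20, 8.83 and 8.95 in AC, the lowest of these from replicate 1. The fourth call, Slc22a21, was at background level in both groups.

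Genes of malonyl-CoA, the inhibitor of CPT1, fell on both sides. The acetyl-CoA carboxylases that make it were lower, Acaca with 8.14 ± 0.08 in DFAT cells and 11.74 ± 0.05 in AC and Acacb with 4.65 ± 0.38 in DFAT cells, at background level, and 8.17 ± 0.39 in AC (SD, n = 3 each), and Mlycd, which removes it, fell by 1.61. Of AMPK, the kinase that inhibits the carboxylases, the catalytic subunit Prkaa2 fell by 3.53 to background level and Prkaa1 was called higher by 1.07 (adjusted p = 0.0124 from limma), a call lost without DFAT replicate 1 or 3 and with the methods' t-test. The other 5 genes of this list, subunits and the upstream kinase Stk11, did not pass the test. Of all 10 measured 4 were lower and 1 was higher, against 23.8% lower and 22.6% higher among all genes. Centred on the reference genes, 8 were lower and none was higher, where of all 45037 probe sets 29396 were lower and 4881 higher.

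Among 14 measured regulators of these genes, 8 were lower and 3 were higher in DFAT cells, against 23.8% lower and 22.6% higher among all genes. Ppara, the PPAR best known for control of fatty acid oxidation, had log2 values of 4.91, 4.80 and 4.97 in DFAT cells, against 7.41, 7.60 and 7.19 in AC. Ppargc1a, which encodes PGC-1α, had 2.93, 3.46 and 2.89 in DFAT cells, against 6.11, 5.95 and 5.68 in AC. Both were at background level in DFAT cells, Ppargc1a also on 1 of the 3 AC arrays, and their differences were -2.51 and -2.82 (adjusted p = 6.48e-06 and 1.61e-05 from limma). Klf15, a factor of fasting metabolism, fell by 4.86 to background level, Pparg fell by 2.17, and Nrip1, a corepressor, fell by 1.91. The mitochondrial deacetylase Sirt3 fell by 1.63, Ppargc1b fell by 1.53 and Rxra, the partner of PPARs, fell by 0.61. The 3 regulators that rose were Nrf1, by 1.39, Tfam, which maintains mitochondrial DNA, by 1.37, and Gabpa, by 0.83. Tfam had 9.14, 9.07 and 9.06 in DFAT cells, against 7.10, 7.99 and 8.10 in AC, the lowest from replicate 1. Nrf1 was at background level in AC. Ppard differed by 0.14 and Esrra by 0.38, neither past the test, and Esrrg was at background level in both groups. Centred on the reference genes, 10 regulators were lower and 2 were higher. On that scale 29396 of all 45037 probe sets were lower and 4881 higher.

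**Figure D4:**
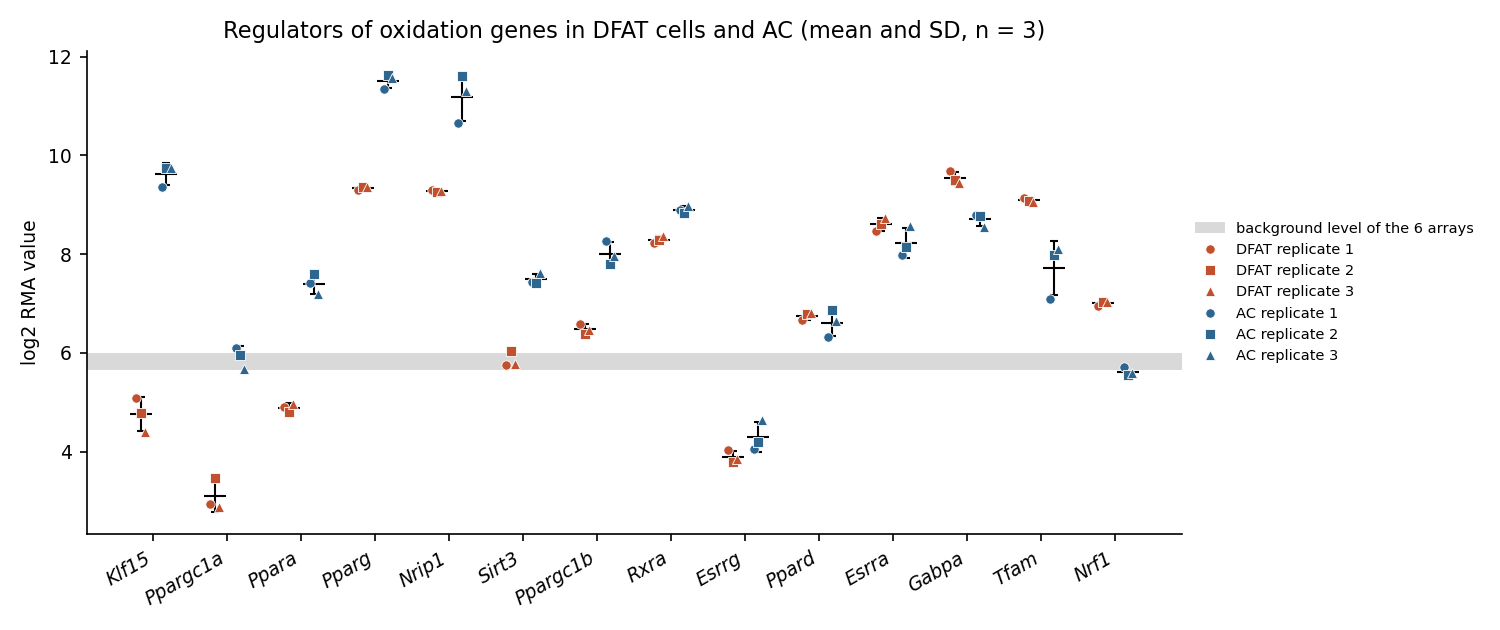
Log2 RMA values (y axis) of 14 regulators of oxidation genes (x axis), ordered by their difference. Points are arrays, red for DFAT cells and blue for AC, black marks are mean and SD (n = 3 each), and background levels, 5.66 to 6.001, are shaded grey. Klf15, Ppargc1a and Ppara lie under the shaded band on the DFAT arrays, and Gabpa, Tfam and Nrf1 are higher there than on the AC arrays.

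Of 10 measured genes known as PPAR targets in lipid use, 6 were lower and 1, Cpt1a, was higher, against 23.8% lower and 22.6% higher among all genes. On the scale of the hybridization controls 3 of the 10 were lower, and 3405 of all 45037 probe sets. Cpt1a, Slc25a20 and Acadm of this list are among the 9 enzymes already counted, and of the other 7 genes 5 were lower, 1 of these at background level in both groups. Beside Acadm the largest falls were those of Fabp4, the fatty acid binding protein of adipocytes, at -2.91, and Angptl4, an inhibitor of lipoprotein lipase, at -2.88. Pdk4, the kinase that holds back pyruvate oxidation, fell by 1.23 (adjusted p = 0.00316 from limma).

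Beside other lists of the cell's oxidative machinery, the 9 enzymes had the lowest median at -1.83, though a difference between lists was not tested. The list of other spiral and electron transfer genes came next at -1.49. Peroxisomal oxidation came after it, with 11 of 14 genes lower and a median of -1.16. Its largest falls were those of Acaa1b, a peroxisomal thiolase, Abcd2, a transporter of very long chains, and Ehhadh, at -6.62, -6.19 and -4.15, and all 3 were at background level in DFAT cells, so that the sizes of these falls are uncertain. The TCA cycle had 14 of 19 genes lower and a median of -0.82, with Pdhb of pyruvate dehydrogenase at -2.03, Sdha at -1.55 and Pdha1 at -1.42 as its largest falls. The respiratory chain and ATP synthase had 19 of 27 subunits lower, a median of -0.52 and no subunit that fell 4-fold, with Uqcrc2 at -1.31, Ndufs1 at -1.20 and Ndufs3 at -1.12, and Atp5d was called higher by 0.38, a call lost without any 1 array but AC replicate 1. Mitochondrial channels and import proteins, with chaperones among them, were more often higher than lower. Of 13, 7 were higher and 1 was lower (Timm44, at -0.50, a call lost without any 1 DFAT array), with a median of 0.57. The largest rises were those of Tomm22 at 1.05, Tomm70a at 0.81 and the chaperonin Hspe1 at 0.80. Among all genes 23.8% were lower and 22.6% higher. Several of the counts of these lists depend on the scale. Centred on the hybridization controls, 5 peroxisomal genes, 7 TCA cycle genes and 1 respiratory subunit were lower, where 3405 of all 45037 probe sets were lower. Centred on the reference genes, 1 gene of the channels and import was higher and 4 were lower. There 29396 of all probe sets were lower and 4881 higher.

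**Figure D5:**
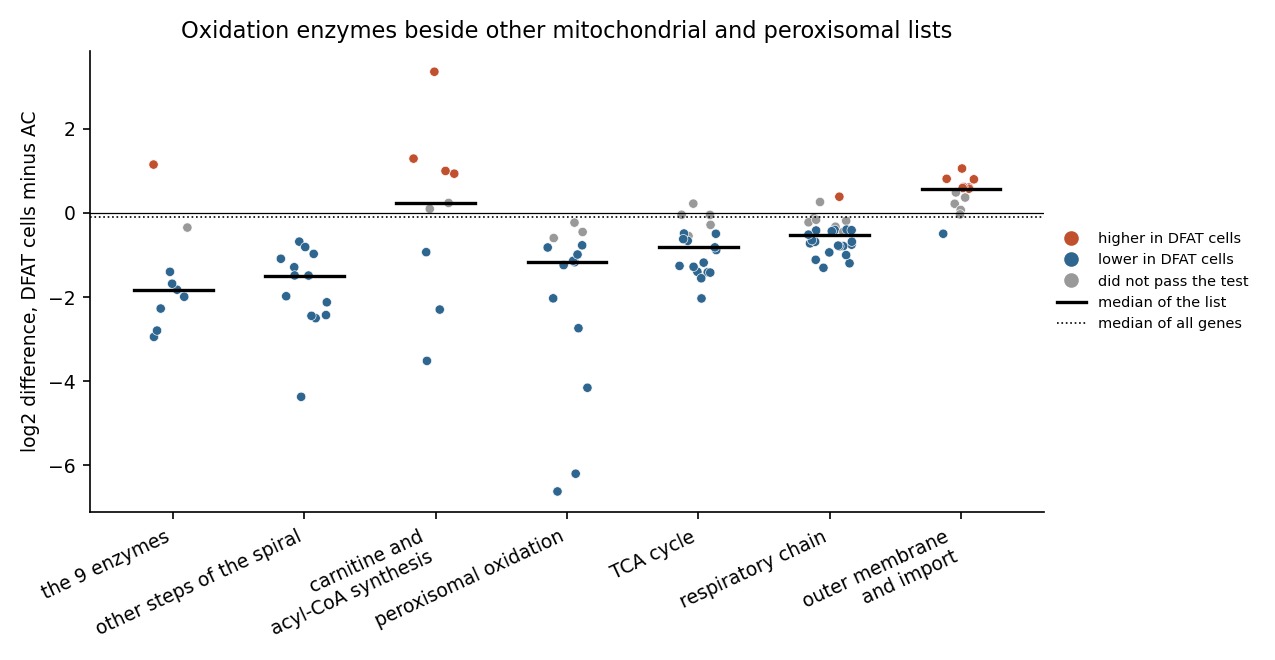
Log2 difference, DFAT cells minus AC (y axis), of the genes of 7 lists (x axis), 1 probe set per gene. Red is higher, blue lower and grey did not pass the test, bars are list medians and the dotted line is the median of all genes, -0.10. The medians run from -1.83 for the 9 enzymes to 0.57 for the channels and import proteins.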

How the data were processed

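The authors hybridized RNA of DFAT cells and AC to Affymetrix mouse expression arrays and deposited log2 values after RMA (affy in R, versions not given in the sources used here), which corrects the background, normalizes between arrays and summarizes each probe set. Depth has no meaning for arrays, and their number, 3 per group, limits the precision. Samples were grouped by their titles. Probe sets were named by the platform annotation, and those with several symbols were left unnamed. Of the 45101 probe sets, 64 controls were left out. The difference of DFAT cells from AC was fitted with limma 3.58.1 under R 4.3.3 (lmFit, eBayes, default settings, two-sided, Benjamini-Hochberg over 45037 probe sets, no filter, threshold 0.05), after the step had been tested on simulated data. The brightest probe set over the 6 arrays stood for a gene, and every probe set of the 10 enzymes is given. From each other list of pathway genes, marker lists aside, the text names the 3 genes that changed most, if called and without overlap of the groups, genes called against most of their list, and all called regulators. Acads, Etfa, Etfb, Etfdh, Acsl4, Acsl5, Slc22a21, Mlycd, Stk11, Pdk4, Oxct1, Ppard, Esrra, Esrrg, Ucp1, Cox8b and Acta1, outside this rule, were named after their values were seen. Listed genes that share every probe set with another symbol, or have none, such as Acsl1, count as not measured. The enzymes and all lists were chosen with earlier results of these data known. Centring of arrays, a floor, filters, variance models, a replicate block, the methods' t-test, means over probe sets, a 4-fold limit and leaving out each array were tried. Pairs that include Cpt1b could not be compared. Figures and tables were made in Python 3.11.15 (pandas 2.3.3, numpy 2.4.6, matplotlib 3.10.9).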

Additional observations from a re-analysis of the deposited data

How the results depend on the processing

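Under all alternatives without a fold limit, Cpt1a stayed higher and Cpt2, Acadl, Acadm, Acadvl, Hadha, Hadhb and Decr1 stayed lower past the test. Slc25a20 changed sign to 0.11 when centred on the hybridization controls, and passed the test as lower with the reference genes, array weights, the mean over its probe sets and without AC replicate 1. With a log2 difference of at least 2 added to the test, 2003 probe sets were lower and 1739 higher. Of the 9 enzymes 3 were lower and 0 higher. Lower then were 5 other genes of the spiral and its electron transfer, 4 regulators, 3 PPAR targets and 0 ketone genes. So were 5 peroxisomal, 1 TCA cycle and 0 respiratory genes and 0 of channels and import. Higher were 1 gene of carnitine and activation and 0 in the malonyl-CoA, regulator, PPAR target, respiratory and import lists. Centred on the reference genes, 29396 probe sets were lower and 4881 higher, with 2 genes of carnitine and activation, 0 of malonyl-CoA, 0 respiratory and 1 of import higher, and 8 of malonyl-CoA and 4 of import lower. Centred on the hybridization controls, 3405 probe sets were lower, and 3 PPAR targets, 5 peroxisomal, 7 TCA cycle, 1 respiratory and 0 import genes were. The share of calls that were higher was 52.9% as deposited, 63.0% with array medians, 14.2% on the scale of the reference genes and 78.5% on that of the hybridization controls. With array medians 0 import genes were lower. With the floor, and without dim probe sets, 1 ketone gene was lower. With the methods' t-test, 13410 probe sets passed after adjustment against 17285 with limma, and 2 genes of carnitine and activation and 0 of malonyl-CoA were higher. With means over probe sets 2 genes of malonyl-CoA were higher, and with unique probe sets 0 respiratory genes. With means, an alternative chosen after seeing the data for these pairs, the difference in change was 2.97 for Cpt1a and Cpt2, 0.14 for Hadha and Hadhb and 1.91 for Acadl and Acadm. These means take in probe sets at background level, of Cpt2 and Acadl in both groups and of Hadhb in DFAT cells. Their part in the shifts was not tested.

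Same-numbered DFAT and AC arrays did not deviate together (correlations of -0.02, -0.03 and 0.01). With 3 arrays per group this cannot settle whether the numbers pair them, and the sample titles do not say. With the replicate number as a block, 7 enzymes were lower and 1 higher, with 16023 probe sets called in all, and 0 respiratory genes were higher and 0 import genes lower. Leaving out each array in turn gave 7 to 8 enzymes lower and 1 higher. It gave 2 to 4 genes of carnitine and activation, 0 to 1 of malonyl-CoA and 0 to 1 respiratory genes higher, and 0 to 1 import genes lower. The higher calls of carnitine and activation fell to 2 without DFAT replicate 2 or 3, that of malonyl-CoA, Prkaa1, was lost without DFAT replicate 1 or 3, the lower call of import, Timm44, without any 1 DFAT array, and the higher respiratory call, Atp5d, without any 1 array but AC replicate 1. At the 90th and 99th percentiles in place of the 95th, the count of enzyme probe sets at background level stayed 3 in each group.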

Other observations

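The probe set that the annotation gives to Cpt1b together with Chkb and Gm44502 was not assigned to any of them. It lay at background level on all 6 arrays, with 4.76, 4.57 and 4.83 in DFAT cells and 4.88, 4.98 and 4.78 in AC, and did not pass the test (difference -0.16, 95% confidence interval -0.48 to 0.15, adjusted p = 0.394 from limma).

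Of 4 measured genes of ketone body metabolism, 2 passed the test as lower in DFAT cells, against 23.8% of all genes. Acat1, the mitochondrial acetoacetyl-CoA thiolase, had log2 values of 9.96, 10.02 and 9.95 in DFAT cells, against 11.62, 11.71 and 11.51 in AC, and fell by 1.64 (adjusted p = 2.6e-05 from limma). Bdh1 also passed as lower, with both groups at background level. Oxct1, which starts the use of ketone bodies, did not pass it, with a difference of -0.14 (95% confidence interval -0.55 to 0.27).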
